A study of Arabidopsis thaliana with 4 samples.

Results

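The 10 genes described here encode proteases of the plant mitochondrion, a mitochondrial disaggregase and prohibitins. They were picked out by locus identifier: LON1 (AT5G26860), CLPX (AT5G53350), CLPP2 (AT5G23140), CLPB4 (AT2G25140), FTSH3 (AT2G29080), FTSH10 (AT1G07510), FTSH4 (AT2G26140), PHB1 (AT4G28510), PHB2 (AT1G03860) and PHB3 (AT5G40770). They are 10 of the 32982 genes counted by RNA sequencing of Arabidopsis thaliana leaves. All 10 were among the 19403 genes that passed the filter on low counts. The series asks whether mitochondrial stress given to one leaf position is accompanied by changes in another, which its title calls systemic acquired adaptation.

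There were 4 groups. Dox local leaves received Dox, labelled 25 um/g; control local leaves received water; Dox systemic and control systemic leaves came from the Dox and the control plants, and no treatment of their own is labelled. The labels do not spell out Dox. All plants were grown on agar medium with sucrose in long days; for the accession, any transgene, the plants' age and the hours between treatment and harvest, nothing is given in the sources used here. Each group held 3 columns of whole-number read counts, taken here as 3 libraries. Whether these came from separate plants is not stated, so a p-value measures only how these libraries vary, which may be technical.

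Library totals ran between 18981328 and 21380652 counts. Libraries of a group differed beyond counting noise, with a chi-square per degree of freedom between 25.4 and 119 over pairs. Dox local library 1 stood apart in the heat shock genes HSFA2 and HSP101. HSFA2, a heat shock transcription factor, had 116 CPM there (counts scaled to library size by the TMM method) and at most 3.26 CPM in any other library. HSP101, a cytosolic disaggregase, had 69.0 CPM there and at most 9.33 CPM elsewhere. AT5G51440, for a mitochondrial small heat shock protein, was also highest of its group there, at 22.5 CPM. The mitochondrial chaperone genes HSP60, MTHSC70-1 and MTHSC70-2 were instead highest of the Dox local group in library 3, at 98.3, 131 and 33.5 CPM. The summed level of 5 leaf markers was 22489 to 26743 CPM in Dox local, 14190 to 22654 CPM in control local, 13858 to 20940 CPM in Dox systemic and 20158 to 24467 CPM in control systemic leaves. The 3 flower and 4 shoot apex markers summed to at most 1.82 CPM and 0.31 CPM, and WUS, which defines the apex organizing centre, was listed at 0. Of 4 root markers, the root hair gene EXPA7 was listed at 0 and PYK10 carried the sum, which was 14.4 to 39.9 CPM in Dox local and 179 to 239 CPM in control local leaves, and 6.89 to 23.8 CPM in Dox systemic and 1.70 to 77.4 CPM in control systemic leaves. The part of these differences in the values below was not tested. In bulk tissue, fewer cells of a type and less RNA per cell cannot be told apart.

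Mitochondria keep their own protein quality control. Lon and the Clp protease degrade damaged or unassembled proteins in the matrix. Membrane-bound AAA proteases of the FtsH family do so at the inner membrane, with their active sites facing the matrix (m-AAA) or the intermembrane space (i-AAA). Prohibitins assemble into large ring-shaped complexes in the inner membrane, with which m-AAA proteases associate. In animals, loss of mitochondrial protein balance raises transcripts of such proteases and chaperones, a response called the mitochondrial unfolded protein response.

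Windows from the upstream regions of 4 genes are given because the letters in them set the members apart from one another while their transcripts were measured in the same libraries. They were matched by locus to RefSeq's TAIR10.1 assembly; the count files hold no coordinates and their build is not given in the sources used here. Each window ends upstream of the annotated gene start and reads 5′ to 3′ on the gene's strand. Capitals mark Site II letters (TGGGCC or TGGGCT, on either strand) in PHB1 and PHB2, a match to a mitochondrial dysfunction motif (CTTG, then 5 bases of any kind, then CACG, here on the opposite strand) in PHB3, and the palindrome GAANNTTC, the core of heat shock elements, in FTSH4.
PHB1, chr4:14086883-14086982, minus strand: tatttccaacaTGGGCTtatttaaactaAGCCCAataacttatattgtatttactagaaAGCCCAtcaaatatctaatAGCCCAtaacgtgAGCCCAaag
PHB2, chr1:982003-982102, minus strand: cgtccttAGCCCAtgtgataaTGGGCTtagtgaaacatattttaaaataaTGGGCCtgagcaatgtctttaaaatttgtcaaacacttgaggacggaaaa
PHB3, chr5:16317432-16317531, minus strand: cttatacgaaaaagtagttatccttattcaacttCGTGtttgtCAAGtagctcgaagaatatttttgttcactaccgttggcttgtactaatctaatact
FTSH4, chr2:11135466-11135623, minus strand: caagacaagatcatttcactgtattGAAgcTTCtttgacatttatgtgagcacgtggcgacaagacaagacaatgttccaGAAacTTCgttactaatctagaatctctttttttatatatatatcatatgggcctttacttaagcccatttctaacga

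Site II elements are known from promoters of plant genes for ribosomal and respiratory chain proteins, where TCP factors bind them. In the region between 250 bases upstream and 50 bases downstream of the annotated start, 5 of the 10 genes held a Site II form, against 21.7% of 27443 promoters. PHB1 held 5 copies of TGGGCT, all in the 100 bases printed, and PHB2 held 3 copies there. FTSH4 held 2 copies upstream of its start, in lower case above. PHB2 and FTSH4 each held a further copy downstream of the start, from base 26 and base 35 of the gene. FTSH3 held 1 copy in the searched region, 67 bases upstream, and CLPX held 1, downstream of its start at base 14. At least 2 copies were found in 3 of the 10 genes, against 13.7% of all promoters. No match to either form was found in PHB3, LON1, CLPP2, CLPB4 or FTSH10. The element AAACCCTA, often found beside Site II in ribosomal protein genes, was in none of the 10, against 6.22% of all promoters.

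The mitochondrial dysfunction motif is bound by NAC factors that are released from the endoplasmic reticulum when mitochondria are impaired. Its form ending in CACG was found in PHB3 alone among the 10 genes, 206 bases upstream, and in 0.536% of all promoters. The form with CAAG in place of CACG was found in none of them and in 0.904% of all promoters. The palindrome GAANNTTC was found in LON1, 11 bases upstream, and in FTSH4, at 172, 133 and 78 bases upstream, against 11.6% of all promoters. FTSH4 and HSFA2 lie head to head on chromosome 2 with 158 bases between their annotated starts, so the FTSH4 window is the whole stretch between these genes. The match at 172 bases upstream of FTSH4 lies beyond that stretch, within the annotated HSFA2 gene, and is not in the window. All matches were sought on both strands, and they are matches of letters, not measured binding sites.

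**Figure D1:**
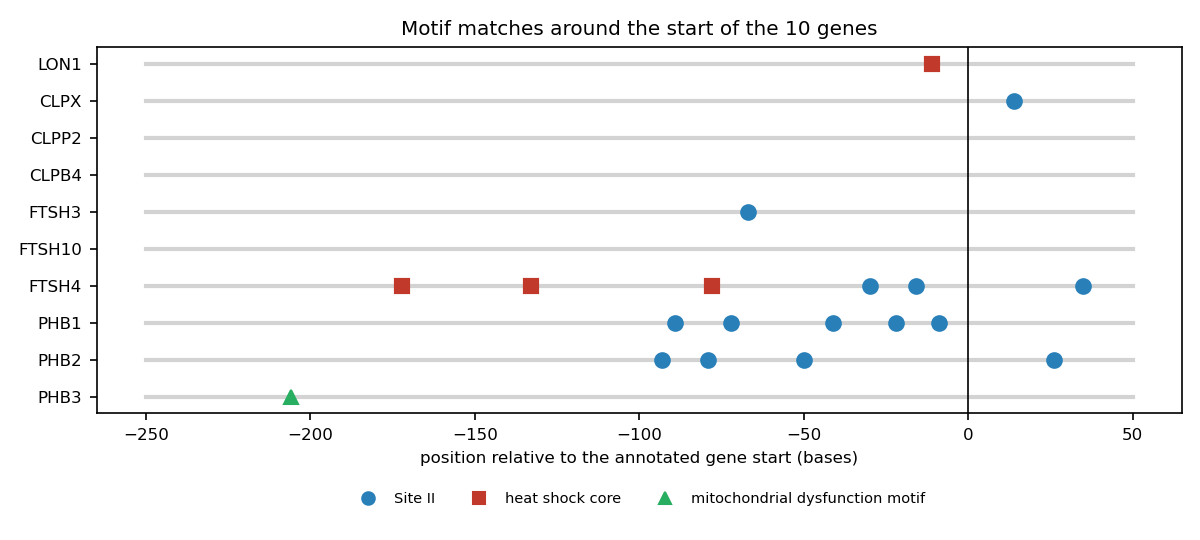
Positions of motif matches in the 10 genes between 250 bases upstream and 50 bases downstream of the annotated gene start (x axis, bases). Each row is a gene, and each point is the first base of a match. PHB1 has 5 Site II matches and FTSH4 has 3 matches to the heat shock core, the farthest upstream lying within the annotated HSFA2 gene.

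None of the 10 genes passed the test between Dox and control leaves in either position. In local leaves, 0 of 10 passed an adjusted p of 0.05 in edgeR's quasi-likelihood test, in DESeq2 or in limma-voom, and 0 of 10 had an unadjusted edgeR p under 0.05, which 4.72% of all genes had. The adjusted test called 0% of all genes in edgeR and limma-voom and 0.0722% in DESeq2. In the comparisons that follow, limma-voom likewise called 0% of all genes, except 0.00515% between positions in Dox plants. In systemic leaves the members' counts were again 0 of 10 by each tool and 0 of 10 at an unadjusted edgeR p under 0.05, beside 0% of all genes called by edgeR, 0.715% called by DESeq2 and 8.61% at that unadjusted p. The median log2 fold change of the 10 genes, Dox over control, was 0.03 in local leaves beside 0.02 over all genes tested, and -0.08 in systemic leaves beside -0.00080 over all genes tested. In the local comparison no gene of the 10 had Dox and control libraries that did not overlap, beside 7.54% of all genes.

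**Figure D2:**
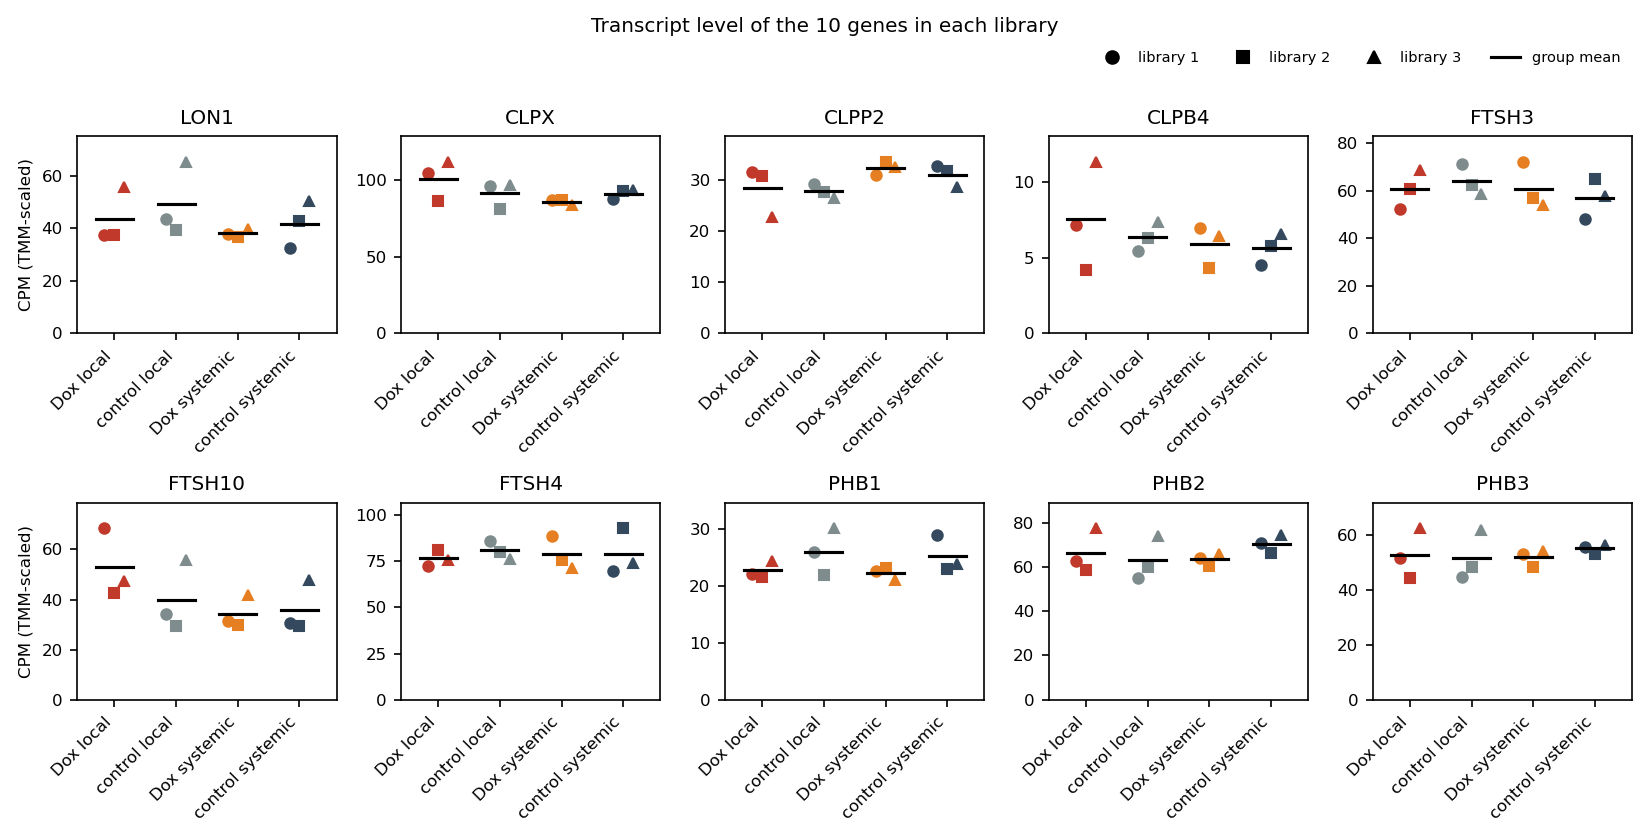
Level of each of the 10 genes in each of the 12 libraries (y axis, CPM after TMM scaling, starting at 0). Symbols stand for library numbers within a group and the bar is the group mean. The groups overlap for most genes, and FTSH10 in Dox local library 1 stands at 68.4 CPM.

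The absence of a call does not show that levels were the same, and the intervals say how large a difference these libraries leave room for. In local leaves, the 95% interval of the log2 fold change excluded a 2-fold difference in either direction for 9 of the 10 genes, all but FTSH10. In systemic leaves it did so for all 10. Standard errors of the log2 fold changes lay between 0.14 for CLPX and 0.34 for CLPB4 in both positions.

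LON1, the ATP-dependent Lon protease of the matrix, lies at chr5:9450952-9457000 in TAIR10.1. It had 37.6, 37.5 and 55.6 CPM in Dox local libraries 1 to 3, against 43.6, 39.2 and 65.1 CPM in control local libraries. In systemic leaves it had 38.0, 36.6 and 39.8 CPM in Dox plants, against 32.4, 42.6 and 50.2 CPM in control plants. Library 3 was the highest of its group in all 4 groups, and Dox and control libraries overlapped in both positions. The log2 fold change was -0.18 (SE 0.23) in local and -0.13 (SE 0.23) in systemic leaves, with edgeR adjusted p-values of 0.915 and 0.911. Group means lay between 38.1 and 49.3 CPM, and the SD within a group reached 13.9 CPM, in control local leaves.

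CLPX, the unfoldase that feeds substrates to the Clp protease, lies at chr5:21643767-21647774. Its levels were 105, 86.4 and 112 CPM in Dox local leaves, against 96.4, 81.2 and 97.1 CPM in control local leaves. In systemic leaves they were 87.1, 87.2 and 84.2 CPM in Dox plants, against 87.7, 92.9 and 93.5 CPM in control plants. All 3 Dox systemic libraries lay below all 3 control systemic libraries, though the nearest were 87.2 and 87.7 CPM. CLPX and PHB2 were the 2 of 10 genes with no overlap in that comparison, both with the Dox libraries below; 8.41% of all genes had this pattern, and 16.4% had no overlap in either direction. The log2 fold change of CLPX was 0.14 (SE 0.14) in local leaves and -0.08 (SE 0.14) in systemic leaves, where it was 0.03 with scaling by total counts alone; the edgeR adjusted p-values were 0.902 and 0.900.

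CLPP2, the proteolytic subunit of the mitochondrial Clp protease, lies at chr5:7783673-7785547. It was measured at 31.6, 30.9 and 22.9 CPM in Dox local leaves, against 29.4, 27.8 and 26.5 CPM in control local leaves. Systemic leaves had 31.1, 33.6 and 32.5 CPM in Dox plants, against 32.9, 31.9 and 28.7 CPM in control plants. Dox local library 3 was the lowest of the 12, and the groups overlapped in both positions. CLPP2's log2 fold changes were 0.03 (SE 0.14) in local and 0.06 (SE 0.14) in systemic leaves, with edgeR adjusted p-values of 0.980 and 0.941.

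CLPB4, a member of the HSP100 family that resolves protein aggregates in mitochondria, lies at chr2:10697629-10702203 and was the lowest of the 10 genes. It had 7.14, 4.18 and 11.3 CPM in Dox local leaves, against 5.45, 6.27 and 7.36 CPM in control local leaves. In systemic leaves it had 6.98, 4.35 and 6.40 CPM in Dox plants, against 4.53, 5.75 and 6.57 CPM in control plants. Dox local libraries held both the lowest and the highest value of all 12. The counts behind these values were 77 to 222 per library. Its log2 fold change was 0.25 (SE 0.34) in local leaves, with a 95% interval between -0.49 and 0.99, and 0.07 (SE 0.34) in systemic leaves; edgeR gave adjusted p-values of 0.918 and 0.968. Without Dox local library 3 the local value was -0.17. In Dox local library 1, where HSP101 stood at 69.0 CPM, CLPB4 stood at 7.14 CPM.

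FTSH3, a subunit of the m-AAA protease, lies at chr2:12489627-12493329. Its levels were 52.4, 60.5 and 68.7 CPM in Dox local leaves, against 71.4, 62.2 and 58.7 CPM in control local leaves. In systemic leaves they were 72.0, 56.7 and 53.9 CPM in Dox plants, against 48.0, 65.0 and 57.9 CPM in control plants. The libraries of each pair of groups interleaved. Log2 fold changes of FTSH3 were -0.08 (SE 0.17) in local and 0.10 (SE 0.17) in systemic leaves, at edgeR adjusted p-values of 0.941 and 0.911.

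FTSH10, the second m-AAA subunit and a close paralogue of FTSH3, lies at chr1:2304435-2312399 and had the largest absolute log2 fold change of the 10 genes in local leaves. It had 68.4, 42.8 and 47.2 CPM in Dox local leaves, against 34.1, 29.2 and 55.9 CPM in control local leaves. In systemic leaves it had 31.3, 29.8 and 42.0 CPM in Dox plants, against 30.8, 29.4 and 47.8 CPM in control plants. The highest library was Dox local library 1, the one with high HSFA2 and HSP101, but control local library 3 lay above the other Dox local libraries, so the local groups overlapped. The log2 fold change in local leaves was 0.41 (SE 0.29, 95% interval between -0.22 and 1.04), with an edgeR adjusted p of 0.902, and it was 0.18 without Dox local library 1, 0.23 without the second control local library and 0.74 without the third. In systemic leaves it was -0.07 (SE 0.29), with an edgeR adjusted p of 0.966.

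The annotated model of FTSH10 contains 2 genes on the opposite strand, AT1G07500 over 266 bases and AT1G07520 over 2852 bases of its exons. Both were listed at 0 counts in all 12 libraries. Of 313 coding genes that lie wholly inside 1 exon of a gene on the opposite strand, 305 (97.4%) were at 0 in all libraries, against 16.7% of all 27444 coding genes. The 0 counts of AT1G07500 and AT1G07520 may thus not show their levels. The strand setting of the counting is not given in the sources used here, so whether reads over the shared bases were counted for FTSH10 cannot be told. How the counting assigned reads shared by FTSH3 and FTSH10 is not given either, and the division between them is uncertain to that extent.

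FTSH4, the i-AAA protease, lies at chr2:11131578-11135465. Its levels were 72.6, 81.4 and 75.9 CPM in Dox local leaves, against 86.2, 80.3 and 76.4 CPM in control local leaves. Systemic leaves had 88.9, 75.9 and 71.5 CPM in Dox plants, against 69.8, 92.8 and 74.0 CPM in control plants. Dox and control libraries overlapped in both positions. FTSH4 gave log2 fold changes of -0.08 (SE 0.15) in local and -0.0025 (SE 0.15) in systemic leaves, and edgeR adjusted p-values of 0.935 and 0.998.

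The stretch printed for FTSH4 is shared with HSFA2, whose levels were 116, 1.25 and 0.87 CPM in Dox local leaves, against 0.05, 0.24 and 3.26 CPM in control local leaves. In systemic leaves HSFA2 had 0.05, 0.42 and 0 CPM in Dox plants, against 0.47, 0.17 and 0.36 CPM in control plants. In the library where HSFA2 stood at 116 CPM, FTSH4 stood at 72.6 CPM, the third lowest of its 12 values. The high HSFA2 level in that library thus stood beside an FTSH4 level within the range of the other libraries.

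**Figure D3:**
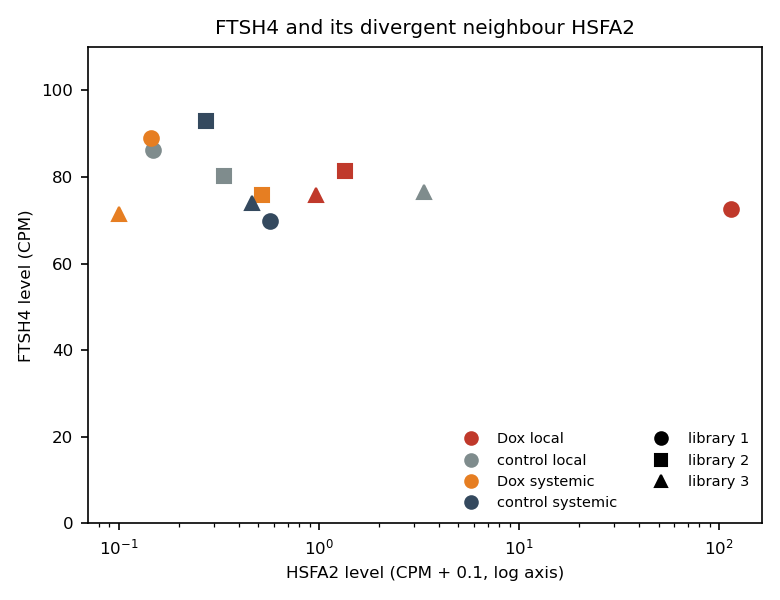
FTSH4 level (y axis, CPM) against HSFA2 level (x axis, CPM plus 0.1, log axis) in the 12 libraries. Colours are groups and symbols are library numbers. HSFA2 stands at 116 CPM in Dox local library 1, while FTSH4 lies between 69.8 and 92.8 CPM in all libraries.

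Prohibitins of Arabidopsis fall into type I, with PHB3, and type II, with PHB1 and PHB2, and the ring contains both; loss of PHB3 is known to impair growth. PHB1, at chr4:14084624-14086882, had 22.2, 21.6 and 24.5 CPM in Dox local leaves, against 26.0, 22.0 and 30.1 CPM in control local leaves. In systemic leaves PHB1 had 22.7, 23.1 and 21.0 CPM in Dox plants, against 28.9, 22.9 and 23.9 CPM in control plants. In each position 1 control library lay within the range of the Dox libraries. Its log2 fold change was -0.20 (SE 0.15) in local and -0.18 (SE 0.15) in systemic leaves, with edgeR adjusted p-values of 0.902 and 0.769; the systemic interval ran between -0.51 and 0.15. The local value was -0.080 without control local library 3, and the systemic value -0.064 without control systemic library 1.

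PHB2, at chr1:979307-982002, had 62.6, 58.8 and 77.4 CPM in Dox local leaves, against 55.2, 59.9 and 74.0 CPM in control local leaves. In systemic leaves PHB2 had 63.9, 60.5 and 65.9 CPM in Dox plants, against 70.9, 66.1 and 74.3 CPM in control plants. The local groups overlapped, while all 3 Dox systemic libraries lay below the control systemic libraries, the nearest being 65.9 and 66.1 CPM. The log2 fold change was 0.07 (SE 0.15) in local leaves and -0.15 (SE 0.15) in systemic leaves, where it was -0.03 with scaling by total counts alone; edgeR adjusted p-values were 0.941 and 0.814.

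PHB3, at chr5:16314850-16317291, had 51.3, 44.1 and 62.2 CPM in Dox local leaves, against 44.5, 48.1 and 61.6 CPM in control local leaves. In systemic leaves PHB3 had 53.1, 48.3 and 54.1 CPM in Dox plants, against 55.6, 53.0 and 56.3 CPM in control plants. Dox and control libraries overlapped in both positions. PHB3's log2 fold changes were 0.03 (SE 0.16) in local and -0.08 (SE 0.16) in systemic leaves, with edgeR adjusted p-values of 0.980 and 0.919. The match to the mitochondrial dysfunction motif in its upstream window thus stood beside a local interval between -0.33 and 0.39. AOX1A, the alternative oxidase gene widely used as a marker of that signalling, had log2 fold changes of 0.07 in local and -0.42 in systemic leaves, with edgeR adjusted p-values of 0.979 and 0.774.

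Leaf position gave no call among the 10 genes either. Between systemic and local leaves of Dox plants, 0 of 10 passed in edgeR, DESeq2 or limma-voom, and 0 of 10 had an unadjusted edgeR p under 0.05, beside 0.00515% of all genes called by edgeR, 3.06% called by DESeq2 and 17.9% at that unadjusted p. FTSH10 had the largest absolute log2 fold change there. Its levels of 31.3, 29.8 and 42.0 CPM in Dox systemic leaves all lay below the 68.4, 42.8 and 47.2 CPM of Dox local leaves. It was the 1 of 10 genes with no overlap in that comparison, against 23.7% of all genes in either direction and 11.8% with the systemic libraries below. The log2 fold change, systemic over local, was -0.62 (SE 0.29, 95% interval between -1.25 and 0.01), at an unadjusted p of 0.0537 and an adjusted p of 0.282 in edgeR and an adjusted p of 0.236 in DESeq2. It was -0.39 without Dox local library 1 and -0.30 with scaling by total counts alone, where the median over all genes was 0.31.

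For the other genes, log2 fold changes in Dox plants, systemic over local, were -0.35 (SE 0.34) for CLPB4, -0.23 (SE 0.14) for CLPX and -0.19 (SE 0.23) for LON1. CLPP2 had 0.19 (SE 0.14), which was 0.051 without Dox local library 3 and 0.49 with scaling by total counts alone. FTSH3 had 0.0075 (SE 0.17) and FTSH4 had 0.04 (SE 0.15). Each prohibitin lay close to 0, with -0.03 for PHB1, -0.06 for PHB2 and -0.02 for PHB3 (SE 0.15 to 0.16). Adjusted p-values of these 9 genes in edgeR were 0.385 and above. A 2-fold difference was outside the 95% interval for 8 of the 10 genes, all but CLPB4 and FTSH10.

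In control plants, 0 of 10 genes passed by any of the 3 tools and 0 of 10 had an unadjusted edgeR p under 0.05, beside 0% of all genes called by edgeR, 0.294% called by DESeq2 and 6.88% at that unadjusted p. No member had systemic libraries apart from local ones, beside 13% of all genes. The log2 fold changes, systemic over local, were -0.24 (SE 0.23) for LON1, -0.0026 (SE 0.14) for CLPX, 0.16 (SE 0.14) for CLPP2 and -0.18 (SE 0.34) for CLPB4. At the inner membrane they were -0.17 (SE 0.17) for FTSH3, -0.14 (SE 0.29) for FTSH10 and -0.04 (SE 0.15) for FTSH4. PHB1 had -0.05, PHB2 0.16 and PHB3 0.10 (SE 0.15 to 0.16). The smallest edgeR adjusted p of the 10 was 0.864, for CLPP2, and the 95% intervals excluded a 2-fold difference for all 10. Same-numbered control libraries deviated together, and with the 2 control groups fitted alone and the library number as a block, a fit chosen after seeing the data, edgeR called 0.378% of all genes (71) and 0 of the 10, with a smallest adjusted p of 0.493 for LON1. FTSH10, which lay apart between positions in Dox plants, thus overlapped in control plants, and the difference between those differences was tested next.

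Whether the Dox effect differed between positions was tested as an interaction, the systemic minus the local log2 difference. It passed for 0 of 10 genes in edgeR, DESeq2 and limma-voom, with 0 of 10 at an unadjusted edgeR p under 0.05, beside 0% of all genes called by edgeR, 0.00516% called by DESeq2 and 5.2% at that unadjusted p. FTSH10 had the largest value in this fit, -0.48 (SE 0.41), with an edgeR adjusted p of 0.840. That value was -0.22 without control systemic library 3, -0.81 without control local library 3 and -0.22 with scaling by total counts alone. Of the matrix genes, CLPX had -0.23 (SE 0.20), CLPB4 -0.17 (SE 0.48), LON1 0.05 (SE 0.33) and CLPP2 0.03 (SE 0.20). FTSH3 had 0.18 (SE 0.24) and FTSH4 0.08 (SE 0.21). Among the prohibitins, PHB1 had 0.02 (SE 0.21), PHB2 -0.22 (SE 0.22) and PHB3 -0.12 (SE 0.23). These comparisons share libraries with the ones above and add no separate support to them.

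**Figure D4:**
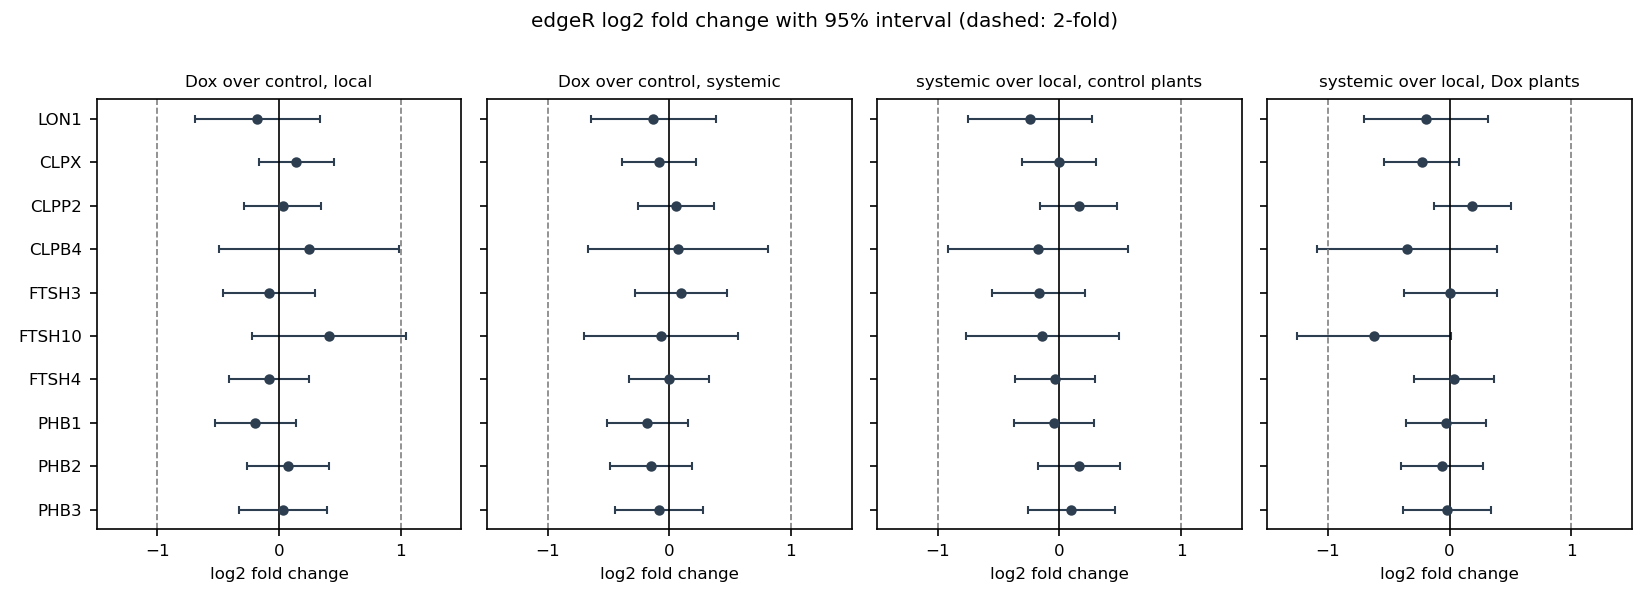
edgeR log2 fold change of each gene (points) with its 95% interval (bars) in 4 comparisons; dashed lines mark a 2-fold difference. Every interval includes 0, and those of FTSH10 in local leaves and of FTSH10 and CLPB4 between positions in Dox plants cross a 2-fold line.

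Levels differed widely between the 10 genes. To compare them, CPM were divided by the kilobases of annotated exon that no other gene shares, and the values here are such levels. CLPX averaged 40.2 ± 3.89 and PHB2 38.7 ± 4.11 CPM per kb over the 12 libraries (SD), and CLPX lay above PHB2 in 7 of the 12, so these neighbours are not separated. FTSH4 followed at 27.6 ± 2.55, below PHB2 in all 12 libraries, and PHB3 at 24.4 ± 2.71, below FTSH4 in 8 of 12. FTSH3 at 19.9 ± 2.49 lay below PHB3 in 11 of 12. CLPP2 had 18.9 ± 1.95 and PHB1 17.9 ± 2.14, and each lay below its neighbour above in 8 of 12 libraries, so the order of FTSH3, CLPP2 and PHB1 is not separated by the libraries. LON1 had 12.6 ± 2.74 and lay below PHB1 in all 12, FTSH10 had 11.3 ± 3.46 and lay below LON1 in 9 of 12, and CLPB4 had 1.90 ± 0.568 and lay below FTSH10 in all 12. Per kilobase of coding sequence instead, PHB2 (76.4) and PHB3 (63.2) came before CLPX (53.2), and FTSH10 (16.7) before LON1 (14.6), so the order depends on which length is used. Over its full exon length, part of which lies opposite other genes, FTSH10 had 6.06 CPM per kb; since the strand setting is unknown, which length applies to it is not settled. CLPB4 was the lowest on both scales, at 2.20 CPM per coding kilobase.

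The spread between libraries of one group also differed between members. The pooled SD of log2(CPM + 0.5) within groups was 0.12 for CLPX, 0.14 for CLPP2, 0.15 for FTSH4 and PHB1, 0.16 for PHB2, 0.18 for PHB3 and 0.20 for FTSH3, against a median of 0.32 over all genes tested. LON1 had 0.30, FTSH10 0.38 and CLPB4 0.41. Only 3.9% of genes varied less than CLPX. This ranking takes no account of level. CLPX had the highest mean of the 10 genes, 92.6 CPM, and CLPB4 the lowest, 6.36 CPM. FTSH10, at 40.7 CPM, nonetheless varied more than PHB1, at 24.1 CPM, and the part of level in the spread was not tested. FTSH10 and CLPB4, which gave the largest fold changes in local leaves and between positions in Dox plants, were the members that also varied most within groups. LON1, PHB2 and PHB3 were highest in library 3 of all 4 groups, 3 of 10 genes beside 4.46% of all genes; none of the 10 was highest in library 1 of all groups, beside 1.62% of all genes, or in library 2, beside 2.82%. The labels do not say what a library number stands for, and this pattern was picked out after the values were seen.

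Ratios between partner subunits, taken on CPM per kb, cancel the scaling of a library; they were added after the levels had been seen, and 16 comparisons of 4 ratios were made by exact two-sided permutation tests on log2 ratios. With 3 libraries against 3 the smallest p such a test can give is 0.1. FTSH10 over FTSH3 was 1.10, 0.598 and 0.582 in Dox local leaves, against 0.404, 0.398 and 0.805 in control local leaves. In systemic leaves it was 0.368, 0.444 and 0.659 in Dox plants, against 0.543, 0.383 and 0.699 in control plants. Dox local library 1 was the only library in which FTSH10 exceeded FTSH3 on this scale, and the same held per kilobase of coding sequence, at 1.30. Over full exon lengths the ratio was 0.592 in that library, still the highest of the 12, and above 1 in none. The choice of length multiplies all 12 ratios alike, so the tests of this ratio on the log2 scale do not depend on it. The exact permutation p was 0.3 in local leaves (0.686 after Benjamini-Hochberg adjustment over 16 comparisons) and 0.7 in systemic leaves (adjusted 0.914). Between positions, systemic minus local, the log2 ratio differed by -0.61 in Dox plants (exact permutation p 0.3, adjusted 0.686) and by 0.06 in control plants (p 1, adjusted 1).

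The other ratios spanned narrower ranges, relative to their level. CLPX over CLPP2 leaves out the paralogues CLPX2 and CLPX3. Their group means were 34.7 to 36.9 CPM and 14.3 to 20.6 CPM, against 86.2 to 101 CPM for CLPX. CLPX over CLPP2 averaged 2.52 ± 0.75 in Dox local and 2.26 ± 0.254 in control local leaves, and 1.83 ± 0.0814 in Dox systemic and 2.03 ± 0.204 in control systemic leaves (SD, n = 3 each; exact permutation p-values 0.8 and 0.2, adjusted 0.914 and 0.686). PHB3 over the sum of PHB1 and PHB2, type I over type II, averaged 0.434 ± 0.0267 in Dox local and 0.42 ± 0.02 in control local leaves, and 0.445 ± 0.0192 in Dox systemic and 0.423 ± 0.0158 in control systemic leaves (SD, n = 3 each; exact permutation p-values 0.5 and 0.2, adjusted 0.889 and 0.686). Over all 12 libraries this ratio stayed between 0.397 and 0.460, the narrowest range of the ratios in the plot of subunit ratios. Systemic minus local, the log2 ratio of CLPX over CLPP2 differed by -0.42 in Dox plants and -0.16 in control plants (exact permutation p 0.2 each, adjusted 0.686). For PHB3 over PHB1 plus PHB2 the same difference was 0.04 in Dox plants and 0.0099 in control plants (exact permutation p-values 0.6 and 0.8, adjusted 0.914 each).

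**Figure D5:**
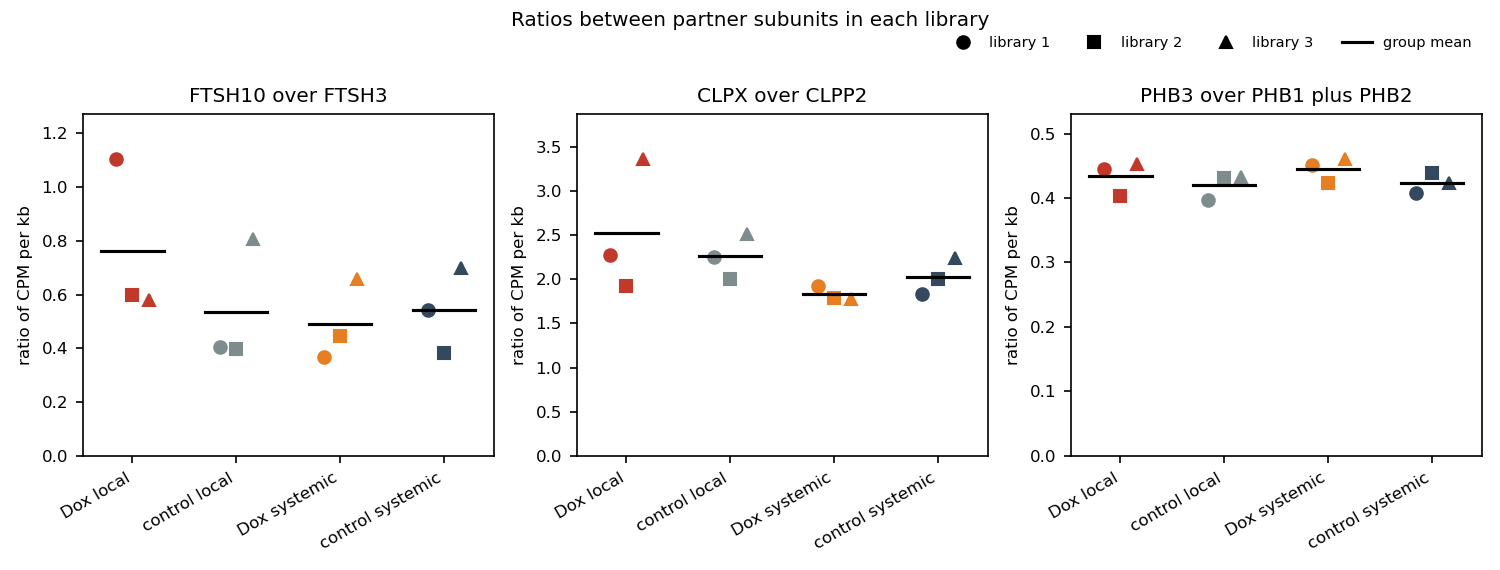
Ratios between partner subunits in each library (y axis, ratio of CPM per kb of unshared exon, starting at 0), by group, with the group mean as a bar. FTSH10 over FTSH3 is highest in Dox local library 1, at 1.10 (0.592 over full exon lengths), and PHB3 over PHB1 plus PHB2 lies between 0.397 and 0.460 in all libraries.

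A list of 20 further genes was set up for mitochondrial proteolysis, of which 19 passed the filter. Where in the cell their products lie was not checked, and products that also enter chloroplasts were not set apart. None of the 19 genes was called in either Dox comparison by edgeR or DESeq2. Of them, 0 in local and 1 in systemic leaves had an unadjusted edgeR p under 0.05, beside 4.72% and 8.61% of all genes. Their median log2 fold change was -0.02 in local leaves (6 positive, 13 negative) and 0.07 in systemic leaves (12 positive, 7 negative). The largest local values were 0.50 (SE 0.25) for FTSH11, an FtsH protease, 0.36 (SE 0.21) for PREP1, which degrades cleaved presequences, and -0.33 (SE 0.22) for the peptidase OCT1, each with an edgeR adjusted p of 0.902. In systemic leaves they were -0.58 (SE 0.52) for LON4, 0.44 (SE 0.17) for the serine protease DEG10 and 0.37 (SE 0.29) for IMP2, an inner membrane peptidase. DEG10 had 23.9, 20.5 and 20.1 CPM in Dox systemic leaves, against 15.8, 14.7 and 17.0 CPM in control systemic leaves. Its groups did not overlap, as for 7.96% of all genes with the Dox libraries above, and its p was 0.0266 unadjusted and 0.540 adjusted in edgeR.

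Of 6 further prohibitins and stomatin-like proteins, which share the same membrane domain, 4 passed the filter. PHB5 and PHB7 did not, and PHB7 reached at most 0.31 CPM. All annotated exon bases of PHB5 lie opposite another gene, AT5G14290, so its counts may not show its level. None was called in either Dox comparison by edgeR, beside 0% of all genes. DESeq2 also called none, beside 0.0722% of all genes in local and 0.715% in systemic leaves. None had an unadjusted edgeR p under 0.05, beside 4.72% of all genes in local and 8.61% in systemic leaves. In local leaves the values were -0.18 for SLP2, -0.14 for PHB4 and 0.08 for PHB6, and in systemic leaves -0.17 for SLP2, -0.16 for PHB4 and 0.08 for SLP1 (log2, SE 0.12 to 0.21). Adding PHB4 to PHB3 and PHB6 to PHB1 and PHB2 gave a type I over type II ratio of 0.424 ± 0.0191 in Dox local and 0.442 ± 0.0248 in control local leaves, and 0.445 ± 0.0276 in Dox systemic and 0.444 ± 0.0297 in control systemic leaves (SD, n = 3 each; exact permutation p-values 0.5 and 1, adjusted 0.889 and 1). Systemic minus local, the log2 of that ratio differed by 0.07 in Dox plants and 0.0075 in control plants (exact permutation p-values 0.3 and 0.8, adjusted 0.686 and 0.914).

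Chloroplasts hold relatives of these proteases, the Clp and FtsH genes that maintain the stroma and the thylakoids, and all 16 on the list passed the filter. None was called in either Dox comparison by edgeR or DESeq2, with 1 in local leaves at an unadjusted edgeR p under 0.05, beside 4.72% of all genes, and 4 in systemic leaves, beside 8.61%. The median log2 fold change was 0.16 in local leaves (15 positive, 1 negative) and -0.22 in systemic leaves (2 positive, 14 negative), against 0.03 and -0.08 for the 10 mitochondrial genes. With scaling by total counts alone the plastid medians were 0.04 and -0.11, beside -0.12 and 0.11 over all genes tested. CLPP4 (0.32, SE 0.14), FTSH5 (0.31, SE 0.19) and FTSH1 (0.27, SE 0.17) had the largest local values. CLPC1 (-0.36, SE 0.21), CLPP5 (-0.35, SE 0.15) and CLPR1 (-0.33, SE 0.15) had the largest systemic ones. Between Dox and control systemic leaves 8 of the 16 had all Dox libraries below, against 8.41% of all genes; the summed leaf markers were also at 13858 to 20940 CPM in Dox systemic and 20158 to 24467 CPM in control systemic leaves, and their part in it was not tested. The interaction was negative for 16 of 16 plastid genes (median -0.37) and for 5 of the 10 mitochondrial genes, beside 51.1% of all genes. Of the plastid genes none was called and 3 had an unadjusted edgeR p under 0.05, beside 5.2% of all genes. With scaling by total counts alone the interaction was negative for 11 of 16 plastid genes (median -0.13) and for 1 of the 10 mitochondrial genes. The median over all genes tested was then 0.24, so that scaling moved the other genes as well. The difference between these lists was not tested.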

How the data were processed

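Per the submitters' processing notes, featureCounts 1.6.3, HISAT2, DESeq2, Trimmomatic 0.39 and FastQC 0.11.9 were used, with no role or order stated; for the build, annotation, strand setting and reads with several matches, nothing is given in the sources used here. The authors deposited whole-number counts per gene, with no normalization, as 3 columns for each of 4 samples. Of 32982 genes, 32548 (99.1% of those with a numbered locus) matched TAIR10.1 in RefSeq, which supplied names, exon lengths and sequences.

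The main test was edgeR 4.0.16 (R 4.3.3): quasi-likelihood, TMM, filterByExpr at a minimum count of 10, 4 group means over 12 libraries, Benjamini-Hochberg adjustment over 19403 genes, called at 0.05. It had 8 residual degrees of freedom, 3.32 prior ones and a common BCV (biological coefficient of variation) of 0.32. SE is the absolute log2 fold change over the square root of F. CPM are TMM-scaled. Library totals were 18981328 to 21380652 counts; the spread between libraries of a group, beyond counting noise, sets the precision. Alternatives were DESeq2 1.42.0, limma-voom 3.58.1, other scalings, no filter, fits of only the groups compared, a replicate block and each library left out. Ratios used exact permutation tests (SciPy 1.17.1, Python 3.11.15).

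All 10 members are named in all comparisons; from each context list, the 3 genes of at least 1 CPM with the largest absolute log2 fold change per Dox comparison are named. HSFA2, HSP101, AOX1A and PYK10 were named for single libraries or as markers. Library numbers, from the column names, were taken to pair groups where deviations of all 3 same-numbered pairs correlated over 0.1. This held between the control groups (0.291 to 0.704) and in no other comparison. The members and lists were chosen with earlier results of these data known.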

Additional observations from a re-analysis of the deposited data

How the results depend on the processing

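No member was called under any alternative (760 member values; smallest adjusted p 0.155 in edgeR with the replicate block, for FTSH10 between positions in Dox plants). The sign changed for 34 of 50 member results under some alternative, among them CLPB4 between positions in Dox plants (-0.35 in the fit reported) and LON1 between positions in control plants (-0.24), and the cause was not tested. Leaving out 1 library turned the sign of 29 of the 50 results, and only these are listed here, with their log2 ranges. Dox over control, local: CLPB4 -0.17 to 0.54, CLPP2 -0.053 to 0.16, FTSH3 -0.18 to 0.011, LON1 -0.39 to 0.074, PHB2 -0.054 to 0.20, PHB3 -0.11 to 0.18. Dox over control, systemic: CLPB4 -0.062 to 0.25, FTSH10 -0.24 to 0.19, FTSH3 -0.042 to 0.20, FTSH4 -0.10 to 0.13, LON1 -0.27 to 0.024. Systemic over local, control plants: CLPX -0.084 to 0.040, FTSH10 -0.40 to 0.18, FTSH4 -0.17 to 0.019, LON1 -0.40 to 0.011, PHB1 -0.17 to 0.070. Systemic over local, Dox plants: CLPB4 -0.64 to 0.063, FTSH3 -0.13 to 0.11, FTSH4 -0.057 to 0.10, LON1 -0.29 to 0.022, PHB1 -0.068 to 0.026, PHB2 -0.14 to 0.061, PHB3 -0.13 to 0.12. Interaction: CLPB4 -0.46 to 0.24, CLPP2 -0.11 to 0.11, FTSH4 -0.018 to 0.21, LON1 -0.20 to 0.26, PHB1 -0.10 to 0.15, PHB3 -0.27 to 0.022.

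Scaling by total counts alone moved the all-gene median to -0.12 (Dox over control, local), 0.11 (Dox over control, systemic), 0.31 (systemic over local, Dox plants) and 0.24 (interaction). The values that changed sign with it were, Dox over control, local, CLPP2 -0.12, PHB2 -0.043 and PHB3 -0.083; systemic, CLPX 0.029, FTSH10 0.061, FTSH4 0.11 and PHB3 0.033; systemic over local, control plants, CLPX 0.044, FTSH4 0.0046 and PHB1 0.0077; Dox plants, LON1 0.085, CLPX 0.063, PHB1 0.26, PHB2 0.22 and PHB3 0.27; interaction, CLPX 0.019, CLPB4 0.066, PHB2 0.010 and PHB3 0.12. Upper-quartile scaling, which moved the all-gene median to 0.14 in Dox plants, did so for CLPP2 (-0.028) and PHB3 (-0.0086) in the local and FTSH4 (0.013) in the systemic Dox comparison, CLPX (0.046), FTSH4 (0.0085) and PHB1 (0.0064) in control plants, and PHB1 (0.082), PHB2 (0.048) and PHB3 (0.093) in Dox plants. FTSH3 between positions in Dox plants was -0.0069 with RLE factors, -0.0072 in DESeq2 and -0.013 with only 2 groups fitted. FTSH4 in the systemic Dox comparison was 0.0065 in limma-voom.

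Same-numbered libraries of the control groups deviated together, and all 6 correlated best with their own number. With only these groups fitted and the replicate block, chosen after seeing the data, 71 genes were called between positions in control plants, against 0 in the fit reported, and CLPX was 0.0029. In the other comparisons the numbers did not pair the groups: correlations lay between -0.286 and 0.219 (Dox over control, local), -0.0879 and 0.462 (systemic) and -0.0998 and 0.00087 (Dox plants), and 2, 2 and 0 of 6 libraries correlated best with their own number. With the replicate block over all 12 libraries, FTSH4 in the systemic Dox comparison was 0.00070, CLPX between positions in control plants was 0.0025, and 2 genes in all were called between positions in Dox plants, against 1 without it.

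Genes called over the whole table were 14, 136, 57, 594 and 1 in DESeq2 for the 5 comparisons in the order above, against 0, 0, 0, 1 and 0 in edgeR. In control plants 1 gene was called with upper-quartile scaling, with total counts alone and with no filter. In Dox plants 0 were called with total counts alone and with only 2 groups fitted, and 0 to 13 with a library left out (13 without Dox local library 2; 0 without any 1 Dox systemic library). The interaction could not be fitted on 2 groups.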
